A study of Homo sapiens with 2 samples.

Results

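The genes described here lie in a pair of neighbourhoods on the short arm of human chromosome 2. The first runs through 2p23-p22 from CLIP4 to CDC42EP3 and the second through 2p14-p13, a stretch named from PELI1 to TIA1. They were read in 2 cell lines, MKN45, a human gastric cancer line, and MKN45P, a line of high metastatic capacity whose parent is MKN45, with 1 exon array per line. Both lines were grown in the same medium with serum and harvested with trypsin, and neither label names a further treatment. The named list held 49 genes, 26 in 2p23-p22 and 23 in 2p14-p13, out of 18923 genes that the array's annotation names. The members were selected on the difference between these same 2 arrays, so the differences are given as a description with no test. Neither line was repeated, the number of arrays limits the precision, and each spread below is that between probesets of a gene or between genes. A probeset is a small group of probes placed on one part of a gene.

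Of the 49 genes, 48 had at least 1 probeset naming them alone. PPP3R1, the regulatory subunit of the phosphatase calcineurin, had none: its 9 probesets also named WDR92. The word measured is kept for genes with 4 probesets or more whose median level reached 1.92 in log2 units, the median of all probesets, and it covers 42 of the 49. The others were MEMO1, with 3 probesets, and SRD5A2, VIT, ETAA1, PLEK and ANTXR1, whose levels were below that limit in the mean of both arrays. All 48 matched genes lay on chromosome 2 in the RefSeq table of GRCh38.p14, and UGP2 and VPS54 lay just before PELI1 in its order.

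Genes that lie side by side share a segment of DNA but often have unrelated functions. Along these stretches they include factors of membrane traffic, chromatin and RNA proteins, signalling enzymes and transporters. Some neighbours are transcribed away from a common start region, so that a single stretch of DNA precedes both. Chromosome segments are often gained or lost in cancer lines, but an expression array reads RNA, and DNA was not measured here.

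Most measured genes of both neighbourhoods were higher in MKN45P than in MKN45, by amounts mostly under 2-fold. Over the 42 genes the median difference, MKN45P minus MKN45, was 0.61 in log2 units, with an interquartile range over genes of 0.23 to 0.95, against 0.03 over all 13130 measured genes. A positive difference was found in 37 of the 42 genes, where 54.9% of all measured genes had one. At least 2-fold higher were 7 of 42, 6 of them in 2p23-p22 and 1 in 2p14-p13, beside 4.58% of all measured genes. None was 2-fold lower, beside 1.2% of all measured genes. A difference of 0.5 or more was found in 24 of 42, beside 15.6% of all measured genes. Of all genes past 2-fold, 79.3% were higher as deposited and 66.3% after the loess scaling described with the levels. These counts describe genes picked for this contrast and nothing is read from their excess over those shares. At least 75% of probesets were higher in MKN45P in 28 of the 42 genes. The share of all measured genes at that limit was not counted, so nothing is read from this number either.

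**Figure D1:**
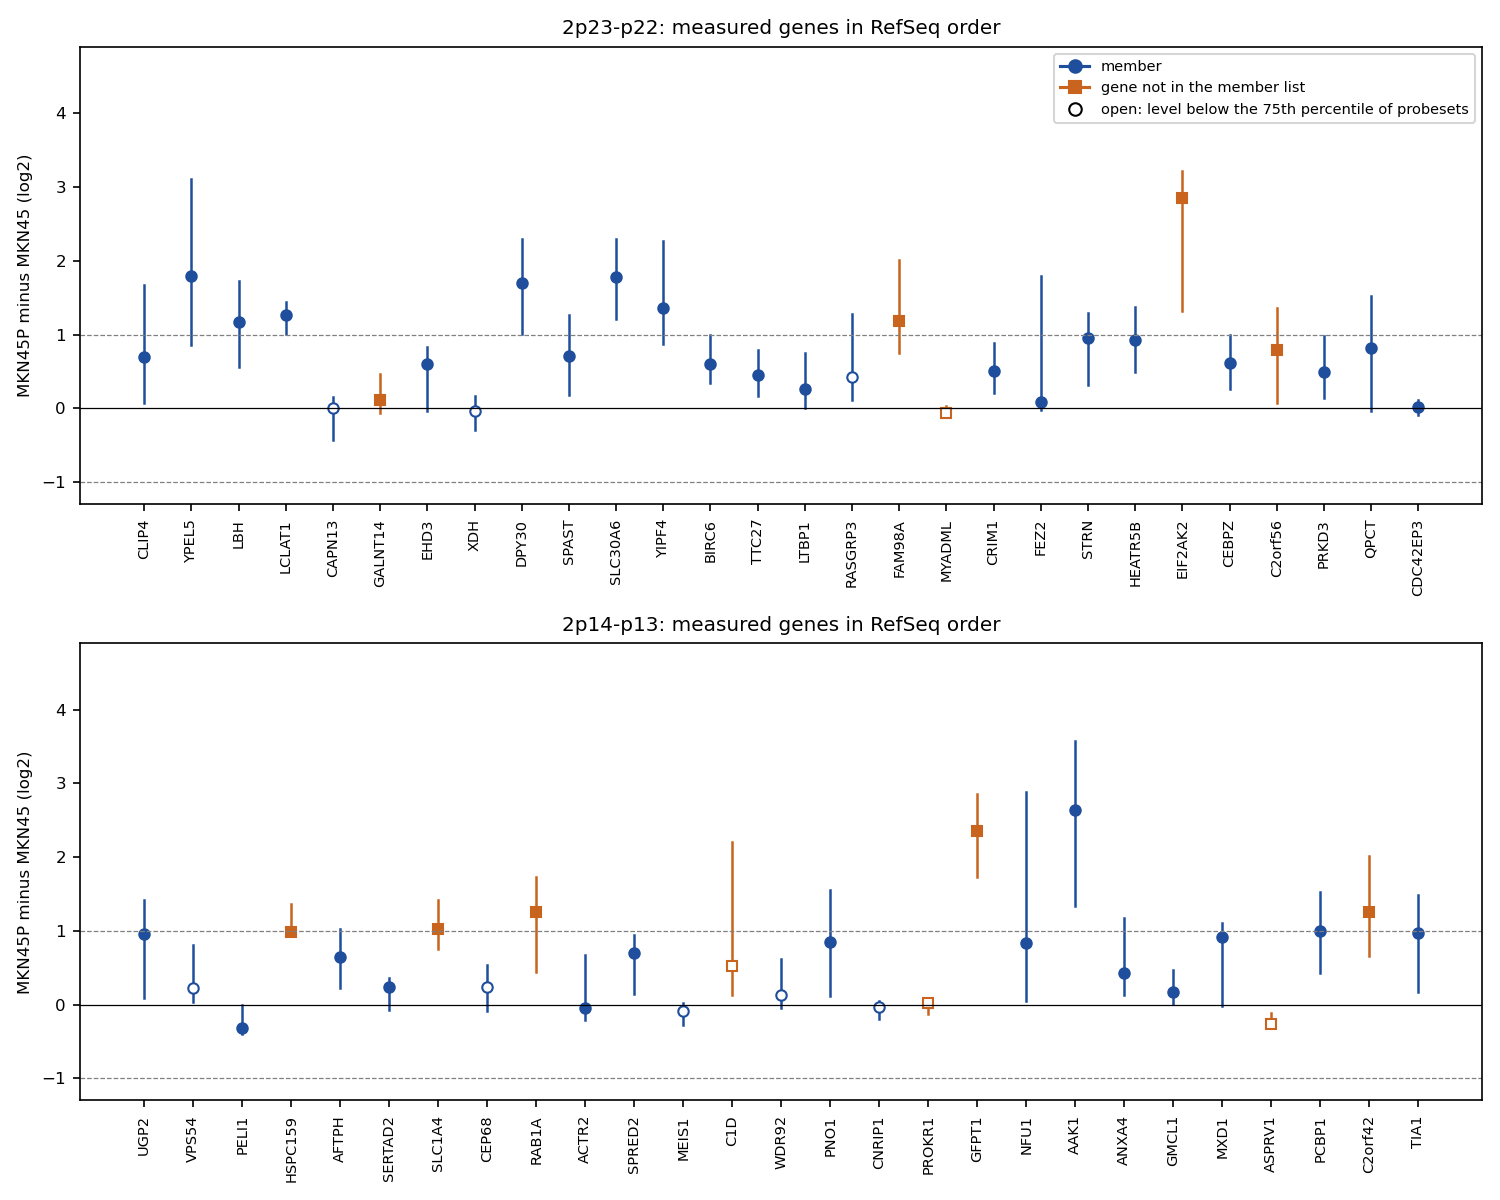
Difference between the lines (MKN45P minus MKN45, log2) for each measured gene of both neighbourhoods in RefSeq order; points are medians over probesets, bars the interquartile range over probesets, dashed lines 2-fold. The 42 listed genes run from -0.32 at PELI1 to 2.64 at AAK1, and EIF2AK2 and GFPT1, which are not on the list, reach 2.85 and 2.35.

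The 23 measured members of 2p23-p22 had a median of 0.62 (interquartile range 0.44 to 1.06) and ran from -0.03 to 1.79, and 22 of them were positive. The 19 measured members of 2p14-p13 had a median of 0.43 (0.15 to 0.88) and a wider range, from -0.32 to 2.64, and 15 were positive. The order of these medians turned over among members with signal, at 0.70 in 2p23-p22 and 0.76 in 2p14-p13. The median of 2p14-p13 was 0.26 with quantile normalization, 0.29 after loess and 0.24 with no level filter. Over probesets with signal it was 0.75, and that of 2p23-p22 was 1.12. The difference between the neighbourhoods was not tested.

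Differences were smaller at low levels. Values are compressed near the low end of the scale, and a level of 2.77, the 75th percentile over probesets, was set as the limit of signal. That level averages both arrays, so a member can pass through the line where it is higher. In MKN45 alone 18 measured members were below 2.77, and in MKN45P alone 8 were. Of the 8 members under the limit none was 2-fold different, and their median was 0.07. Of all measured genes under it 0.32% were 2-fold higher and 0.14% 2-fold lower. The 34 members with more signal had a median of 0.70, against 0.12 over the 8081 measured genes with signal, and 32 of them were positive, where 62.8% of such genes were. All 20 such genes of 2p23-p22 were positive and 12 of 14 in 2p14-p13. At least 2-fold higher were 7 of the 34, beside 7.25% of such genes, and none was 2-fold lower, beside 1.86%. A difference of 0.5 or more was found in 24 of the 34, beside 23.2%. After subtraction of a loess curve of difference on level, the median of the 42 members was 0.48, 36 were positive and 6 stayed 2-fold higher, LBH falling to 0.95. Over all measured genes the median was then -0.006 and 3.43% were 2-fold higher, while the share positive was not counted.

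**Figure D2:**
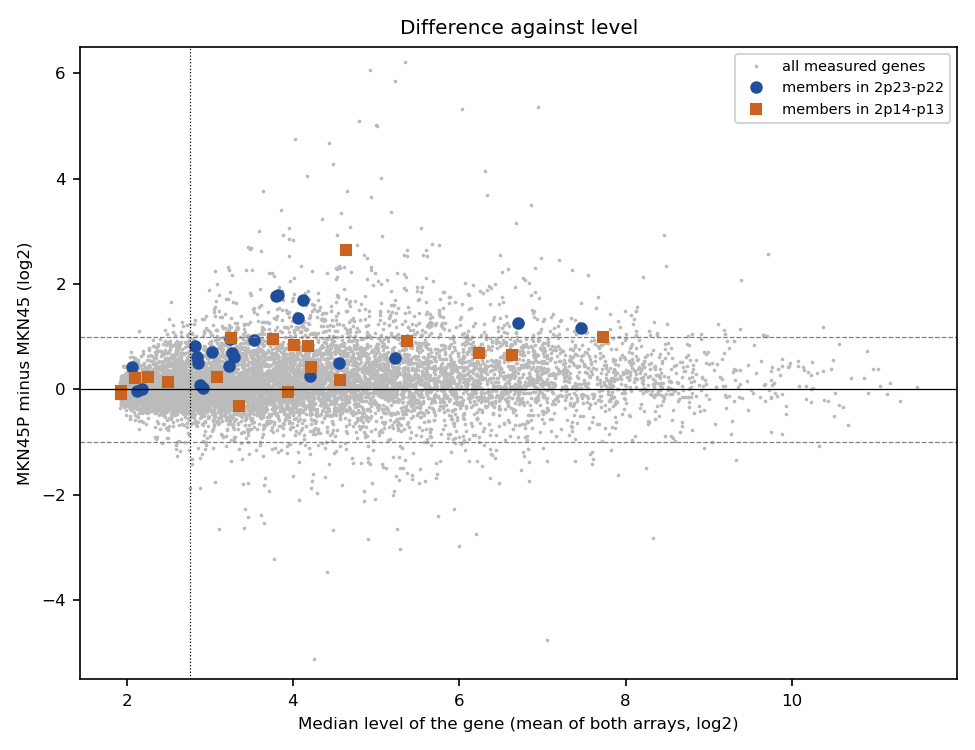
Difference between the lines against the level of the gene (both log2) for all measured genes in grey and for the members of each neighbourhood; the dotted line is at 2.77 and dashed lines are at 2-fold. The 8 members left of the dotted line lie within 0.43 of zero, and AAK1 is the highest member at 2.64.

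At the probeset level, 948 probesets named 1 of the members, and 540 of them were at or above 2.77 in the mean of both arrays. A probeset can reach that limit through MKN45P alone. Of those 540, 454 (84.1%) were higher in MKN45P and 232 (43.0%) at least 2-fold higher, while 7 (1.30%) were at least 2-fold lower. Over all named probesets with such signal, 54.9% were higher, 17.0% were past 2-fold upward and 7.93% past 2-fold downward. Probesets of 1 gene share a transcript and are not replicates.

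Among genes of membrane traffic and the cytoskeleton, 11 of 12 measured members were positive and 2 were 2-fold higher, AAK1 and YIPF4, beside 54.9% and 4.58% of all measured genes. AAK1 encodes a kinase that phosphorylates the adaptor of clathrin-coated vesicles. Its median level was 2.72 in MKN45 and 6.21 in MKN45P, and the difference was 2.64 (1.34 to 3.57 over 39 probesets, 38 of them higher). YIPF4, a Golgi membrane protein, was at 3.09 in MKN45 and 4.33 in MKN45P, a difference of 1.36 (0.87 to 2.26 over 10 probesets). HEATR5B, a partner of the adaptor AP-1, was at 3.17 and 4.03 and higher by 0.93 (0.49 to 1.37), with 40 of its 42 probesets higher. Those ranges do not reach zero, so most probesets of these 3 genes lay on the same side.

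Other members of the same group differed less. SPAST, the microtubule-severing ATPase spastin, was at 2.37 in MKN45 and 3.58 in MKN45P (difference 0.71, 0.18 to 1.27). CLIP4, which has microtubule-binding domains of the CAP-Gly kind, was at 2.63 and 3.57 (0.70, 0.08 to 1.67). AFTPH, a cofactor of clathrin-coated vesicles, was at 6.36 and 7.05 (0.65, 0.23 to 1.02). In all 3 the median difference was under 2-fold and more than 80% of probesets were higher. EHD3, a membrane-remodelling ATPase of recycling endosomes, differed by 0.61, but its range of -0.03 to 0.83 reached zero. CEP68 (0.24) and VPS54 (0.23), a subunit of the GARP tethering complex, were near the low end in both lines. Over its 10 probesets with signal VPS54 differed by 1.17, and 9 of the 10 were higher. FEZ2 (0.08), CDC42EP3 (0.02) and ACTR2 (-0.04), a subunit of the actin-nucleating Arp2/3 complex, were close to zero.

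Chromatin, transcription and RNA genes were positive in 7 of 8 measured members, and DPY30 and LBH were 2-fold higher, where 54.9% of all measured genes were positive and 4.58% 2-fold higher. DPY30 belongs to the core of the histone H3 lysine methyltransferase complexes. Its level was 3.36 in MKN45 and 5.00 in MKN45P, a difference of 1.69 (1.01 to 2.30 over 6 probesets, 5 higher). LBH, a transcriptional regulator, was at 6.48 and 8.24 (1.17, 0.55 to 1.73 over 10 probesets, 8 higher). PCBP1, a protein that binds poly(C) stretches in RNA, was at 6.96 and 7.69 and differed by 0.996 (0.42 to 1.53 over 5 probesets), just short of 2-fold. PCBP1 has close relatives elsewhere in the genome, and whether its probes also read their RNA was not tested.

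TIA1, an RNA-binding protein of stress granules, was at 2.66 in MKN45 and 3.83 in MKN45P, a difference of 0.98 (0.18 to 1.49 over 24 probesets). MXD1, which pairs with MAX and opposes MYC at its sites, was at 5.11 and 6.05 (0.92), but its range of -0.02 to 1.11 reached zero. PNO1, a factor of small ribosomal subunit assembly, was at 3.12 and 4.31 (0.85, 0.11 to 1.55). CEBPZ, a CCAAT-binding factor, was at 2.94 and 3.63 (0.62, 0.27 to 1.00). The homeobox gene MEIS1 was near the low end in both lines (2.07 and 1.84) and the only measured gene of this group with a negative difference, -0.09.

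Of the 9 measured genes of signalling and ubiquitin ligases, 8 were positive and YPEL5 was 2-fold higher, against shares of 54.9% and 4.58% over all measured genes. YPEL5, a subunit of the CTLH ubiquitin ligase complex, was at 2.87 in MKN45 and 5.53 in MKN45P, a difference of 1.79 (0.86 to 3.11 over 11 probesets, 10 higher). BIRC6, a very large ubiquitin-conjugating inhibitor of apoptosis, was read at 94 places. Its levels were 4.61 and 5.55 and its difference 0.61 (0.35 to 1.00), with 88 probesets higher. STRN, a scaffold of the STRIPAK phosphatase complex, was at 2.60 and 3.89 (0.96, 0.32 to 1.29).

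SPRED2, an inhibitor of the RAS to ERK pathway, had a positive difference whose size depended on the summary. Its median levels were nearly equal, 6.24 in MKN45 and 6.27 in MKN45P, while the median of its probeset differences was 0.70 and 20 of 22 probesets were higher. PRKD3, a protein kinase D, was at 2.34 and 3.36 (0.50, 0.14 to 0.99). RASGRP3, an exchange factor for RAS and RAP, differed by 0.43, SERTAD2 by 0.23 and GMCL1 by 0.17. PELI1, a Pellino ubiquitin ligase of innate immune receptor signalling, had the lowest difference of all members, -0.32 (-0.40 to -0.002), and was higher at 3 of 13 probesets. Its median levels were 3.22 and 3.28, so the difference of median levels and the median of probeset differences took different signs.

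Transport and metabolism genes included 2 that were 2-fold higher, SLC30A6 and LCLAT1, among 7 measured, and 6 of the 7 were positive. Over all measured genes 4.58% were 2-fold higher and 54.9% positive. SLC30A6 belongs to the SLC30A family of zinc transporters. Its level was 2.77 in MKN45 and 4.60 in MKN45P, its difference was 1.78 (1.21 to 2.30), and it was the only measured member with every probeset higher, 17 of 17. LCLAT1, an acyltransferase that remodels cardiolipin and other phospholipids, was at 6.16 and 7.20 (1.26, 1.01 to 1.45 over 14 probesets, 13 higher). It had a narrow spread and clear signal in both lines.

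UGP2, which makes UDP-glucose, was at 3.08 in MKN45 and 4.44 in MKN45P (0.96, 0.08 to 1.43 over 19 probesets, 17 higher). NFU1, a mitochondrial iron-sulfur cluster carrier, was at 2.93 and 5.13 with a wide range (0.83, 0.05 to 2.88 over 8 probesets). QPCT, a glutaminyl cyclase, had a median level near the low end in MKN45, at 2.06, and at 2.77 in MKN45P (0.82, -0.04 to 1.52). Its probesets went both ways. Over the 7 with signal the median was 1.52 and 5 were higher, but the lowest difference was -1.12. Its highest value was 7.52 in MKN45 and 6.40 in MKN45P. The purine enzyme gene XDH (-0.03) and the calpain gene CAPN13 (0.003) were near the low end in both lines and close to zero. Over its 7 probesets with signal, however, CAPN13 was lower by 0.86 in MKN45P and 1 of the 7 was higher.

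None of the 3 measured genes of the matrix, surface and annexin group was 2-fold different. CRIM1, a membrane protein that binds bone morphogenetic proteins, was at 4.21 in MKN45 and 4.69 in MKN45P (0.50, 0.21 to 0.89). LTBP1, which holds latent TGF-beta in the matrix, was at 3.73 and 4.41 (0.26, -0.001 to 0.75 over 45 probesets, 33 higher). ANXA4, a calcium-dependent phospholipid-binding protein, differed by 0.43 (0.13 to 1.18). The remaining genes were TTC27 (0.45, 21 of 23 probesets higher), WDR92, now named DNAAF10 (0.13), and CNRIP1 (-0.03). CNRIP1 was near the low end at most of its 14 probesets. Over its 3 probesets with signal the median was -0.96 and none was higher in MKN45P. Its highest value was 8.76 in MKN45 and 7.80 in MKN45P.

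**Figure D3:**
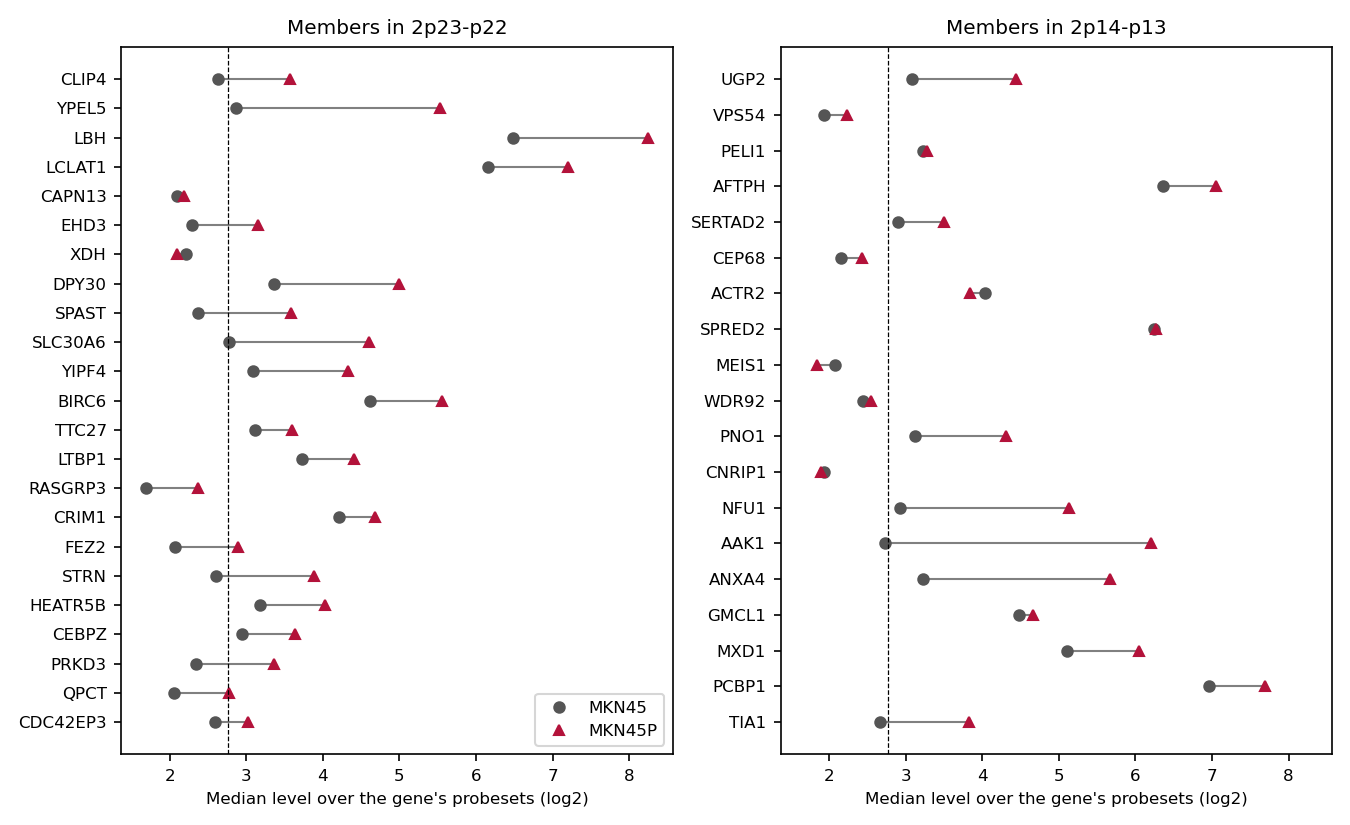
Median level over the probesets of each measured member (log2) in MKN45 (circles) and MKN45P (triangles), in RefSeq order from the top; the dashed line is at 2.77. AAK1 goes from 2.72 to 6.21 and YPEL5 from 2.87 to 5.53, while SPRED2 has nearly the same level in both lines.

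Several members differed strongly at some of their probesets only. An index, the difference of a probeset minus that of its gene, was examined in 31 members that had at least 8 probesets and differed less than 2-fold. Of their 426 probesets with signal, 13 (3.05%) had an index of 2 or more in either direction, 12 relatively higher and 1 relatively lower in MKN45P. Over all 10201 examined genes 1.33% of probesets did, 1061 relatively higher and 511 relatively lower. Such probesets lay in 1163 of those genes. Among members the 13 lay in 7 of the 31, RASGRP3, EHD3, FEZ2, ANXA4, NFU1, CLIP4 and SPAST. Where a gene is near the low end at most probesets, a probeset with signal stands apart from it by construction, and where in the gene these probesets lie was not used here.

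RASGRP3 shows that case most clearly. Its probeset 2476724 was at 1.83 in MKN45 and 7.43 in MKN45P and probeset 2476734 at 1.87 and 4.42, while only these 2 of its 27 probesets had signal. In EHD3 probeset 2475931 went from 2.76 to 7.32, against a gene difference of 0.61. FEZ2, an adaptor of kinesin transport, had 4 such probesets, the largest being 2548186, at 4.11 in MKN45 and 7.78 in MKN45P. Yet probeset 2548219, at 8.05 and 7.74, was slightly lower in MKN45P. Over its 9 probesets with signal FEZ2 differed by 1.82, against 0.08 over all 18.

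In ANXA4 the brightest probeset, 2487441, was at 10.28 in MKN45 and 10.82 in MKN45P, while 2487423 went from 1.94 to 5.66 and 2487443 from 2.26 to 6.18. The gene's median levels, 3.23 and 5.66, were therefore 2.43 apart although the median of its probeset differences was 0.43. NFU1 had large values at 2558125 (3.23 and 7.52) and 2558131 (2.63 and 6.33) and nearly equal levels at 2558139 (7.22 and 7.16). In CLIP4 probeset 2475434 was at 4.97 and 7.87. The 1 probeset with a negative index was 2476077 in SPAST, at 5.52 in MKN45 and with a difference of -1.51.

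**Figure D4:**
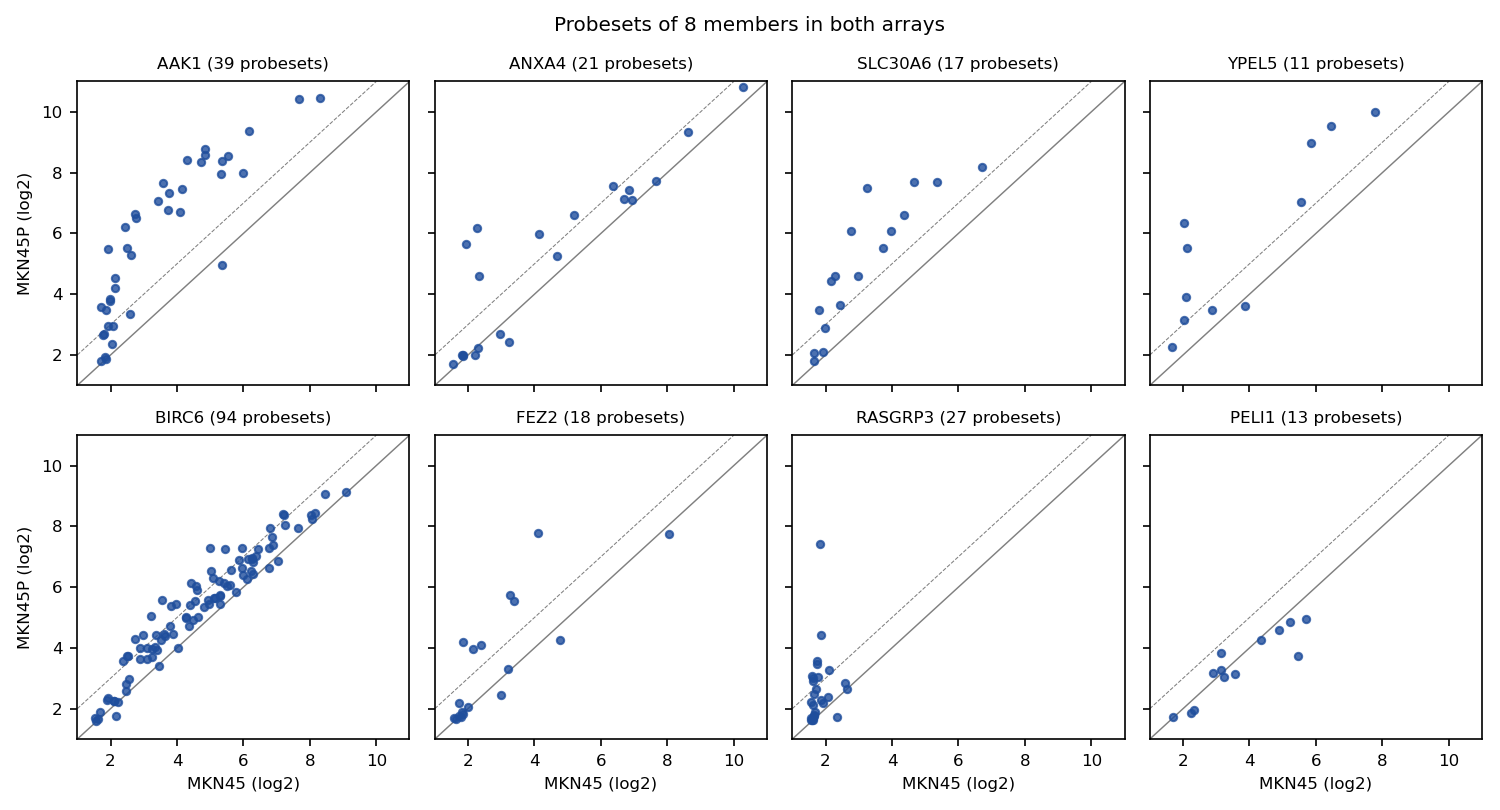
Level of every probeset of 8 members in MKN45 (horizontal) and MKN45P (vertical), both log2; the solid line marks equal levels and the dashed line 2-fold higher in MKN45P. The probesets of AAK1 and SLC30A6 lie above the solid line almost throughout, ANXA4 and FEZ2 have some probesets near the line and some far above it, and PELI1 has 3 of 13 above it.

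The list does not take in every gene of the stretches, and other genes there were also higher. Between the first and last listed genes of the stretches 13 further genes were measured, with a median difference of 0.99 (0.11 to 1.25). Of these, 11 were positive and 6 at least 2-fold higher, beside 54.9% and 4.58% of all measured genes. With no level filter the unlisted genes number 24 and the median over all of them is 0.01. EIF2AK2, the interferon-induced kinase PKR, lies in 2p23-p22. It was at 2.68 in MKN45 and 5.41 in MKN45P, a difference of 2.85 (1.32 to 3.22 over 25 probesets, 24 higher), above every listed gene. FAM98A, in the same stretch, was at 2.78 and 4.67 (1.19, 0.76 to 2.02).

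In 2p14-p13 GFPT1, the first enzyme of hexosamine synthesis, was at 7.23 in MKN45 and 9.75 in MKN45P (2.35, 1.73 to 2.85), higher at all 27 probesets. RAB1A, a GTPase of transport from the endoplasmic reticulum, was at 5.85 and 7.34 (1.25, 0.44 to 1.74 over 7 probesets). C2orf42 was at 2.53 and 4.50 (1.26) and the amino acid transporter SLC1A4 at 5.47 and 6.87 (1.03, all 20 probesets higher). With these genes counted in, 2p14-p13 had 5 of 27 measured genes 2-fold higher and 2p23-p22 had 8 of 28, beside 4.58% of all measured genes. The contrast between 6 and 1 among listed genes thus depends on which genes were listed. Over all measured genes of each stretch the medians were 0.66 in 2p23-p22 and 0.65 in 2p14-p13.

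Past the ends of the stretches values differed by side. Of the 5 measured genes after CDC42EP3, all were positive: CYP1B1, a cytochrome P450 (1.15), HNRPLL (0.48), GALM (1.57), SFRS7 (0.42) and DHX57 (0.51). Before CLIP4 the order was PPP1CB (0.83), TRMT61B (0.46), WDR43 (0.54), FAM179A (-0.19) and C2orf71 (-0.09). Around 2p14-p13 the neighbours were closer to zero. Before UGP2 lay B3GNT2 (0.18), TMEM17 (0.21), EHBP1 (0.13), OTX1 (0.32) and MDH1 (0.18), and after TIA1 lay PCYOX1 (0.13), SNRPG (-0.13), FAM136A (0.29), TGFA (0.16) and ADD2 (-0.07).

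Along the rest of chromosome 2, positive differences were not limited to these stretches. Among genes with signal the median was 0.62 over 65 genes before CLIP4, 0.75 over 24 genes of 2p23-p22, 0.42 over 46 genes between the neighbourhoods, 0.92 over 19 genes of 2p14-p13 and 0.18 over 345 genes after TIA1. On the other chromosomes it was 0.11 over 7548 genes. In consecutive blocks of 50 measured genes, the median of those with signal was 0.79 in the first block, from FAM110C to RDH14, and 0.02 in the last, from KLHL30 to NEU4, which held 32 genes. The first 10 blocks were between 0.31 and 0.79 and the last 7 between 0.01 and 0.18.

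In windows of 15 consecutive measured genes, the highest within 2p23-p22 ran from DPY30 to EIF2AK2 with a median of 0.71, and the highest within 2p14-p13 from C1D to TIA1 with 0.83. A window elsewhere on the chromosome, from KIDINS220 to HPCAL1, reached 0.90, and on chromosome 10 the window from ACTA2 to BTAF1 reached 0.92. Of all 12741 windows 7 were at or above the best of 2p14-p13 and 24 at or above that of 2p23-p22. Overlapping windows share genes, and these ranks carry no significance level.

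**Figure D5:**
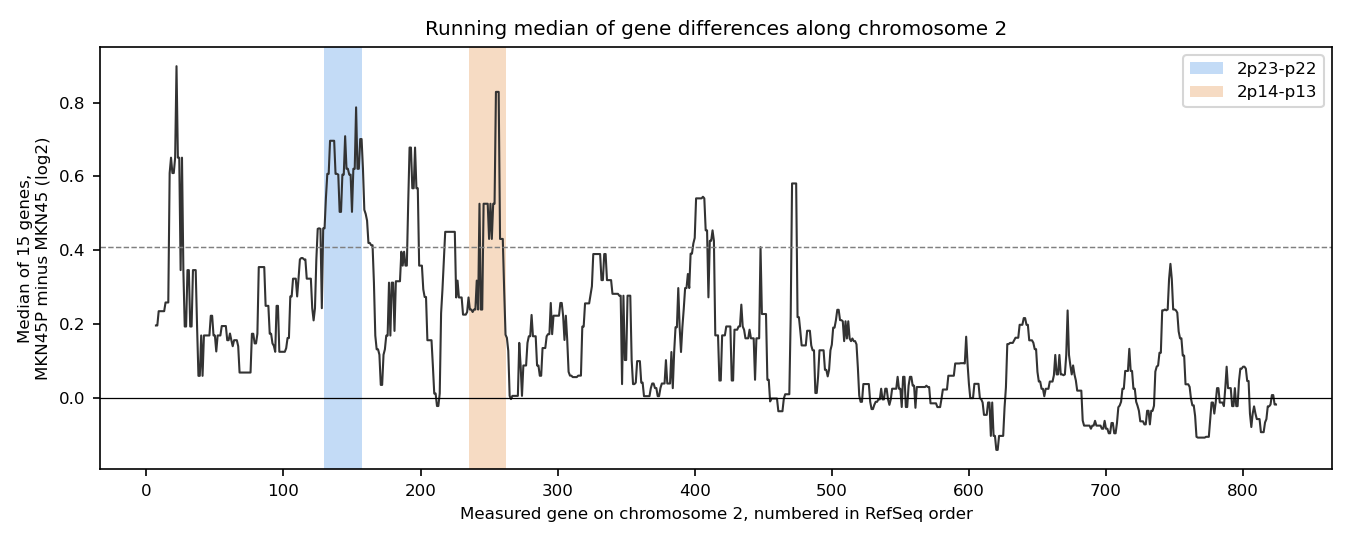
Running median of the difference between the lines (MKN45P minus MKN45, log2) over 15 consecutive measured genes of chromosome 2 in RefSeq order, with the neighbourhoods shaded; the dashed line, at 0.41, is an upper percentile of all windows. The curve peaks at 0.83 within 2p14-p13 and at 0.90 near the start of the chromosome.

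Some members share their start region with a neighbour read in the opposite direction, and such pairs did not always have similar values. RefSeq places a start of ANXA4 69 bases from that of AAK1 on the opposite strand. ANXA4 also has a more distant start, with a window from chr2:69741884, and which start its RNA came from was not tested. AAK1 was higher by 2.64 and ANXA4 by 0.43, with interquartile ranges over probesets that do not meet (1.34 to 3.57 and 0.13 to 1.18). By the difference of median levels AAK1 was higher by 3.48 and ANXA4 by 2.43, so their contrast depends on the summary. CEBPZ and C2orf56, now named NDUFAF7, a mitochondrial methyltransferase gene, start 62 bases apart and were close, at 0.62 and 0.79. PNO1 and WDR92 start 361 bases apart and differed by 0.85 and 0.13, with ranges that overlap (0.11 to 1.55 and -0.04 to 0.61). Near PCBP1 (0.996) the gene ASPRV1, 102 bases away, was near the low end and at -0.26. HEATR5B and CCDC75, now named GPATCH11, start 146 bases apart, but CCDC75 had 3 probesets and was not measured. The start of EHD3 lies 195 bases from that of CAPN14, which was below the level filter.

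The windows of 300 bases, 250 before and 50 after each start, are shown for AAK1 and ANXA4 because they overlap by 168 bases and read the same DNA from opposite strands. Capitals mark matches to the letters searched, all sequences read 5′ to 3′ on the strand of the gene, and they come from RefSeq, GRCh38.p14. AAK1 is at chr2:69643690-69643989 on the minus strand and ANXA4 at chr2:69643558-69643857 on the plus strand.
AAK1: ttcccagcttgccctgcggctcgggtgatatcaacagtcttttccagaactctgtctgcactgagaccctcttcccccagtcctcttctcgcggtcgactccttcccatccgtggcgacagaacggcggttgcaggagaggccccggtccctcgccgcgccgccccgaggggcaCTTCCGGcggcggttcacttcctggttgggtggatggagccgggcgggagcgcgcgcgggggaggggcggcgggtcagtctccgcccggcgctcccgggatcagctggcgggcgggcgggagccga
ANXA4: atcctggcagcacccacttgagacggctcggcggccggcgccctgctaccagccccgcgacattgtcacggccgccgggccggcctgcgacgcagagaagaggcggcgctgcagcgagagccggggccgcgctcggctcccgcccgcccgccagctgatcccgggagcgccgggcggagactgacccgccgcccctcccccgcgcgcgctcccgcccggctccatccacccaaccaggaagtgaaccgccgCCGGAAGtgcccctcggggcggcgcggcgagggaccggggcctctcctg
Both carry a match to CCGGAAG, the core of an ETS site, searched on both strands. The match at chr2:69643809-69643815 is the same one in both, and its first base on the AAK1 strand lies 76 bases before the AAK1 start.

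HEATR5B, at chr2:37084323-37084622 on the minus strand, is shown for the number of its matches, and EIF2AK2, at chr2:37156931-37157230 on the minus strand, because it had the largest difference in the stretches.
HEATR5B: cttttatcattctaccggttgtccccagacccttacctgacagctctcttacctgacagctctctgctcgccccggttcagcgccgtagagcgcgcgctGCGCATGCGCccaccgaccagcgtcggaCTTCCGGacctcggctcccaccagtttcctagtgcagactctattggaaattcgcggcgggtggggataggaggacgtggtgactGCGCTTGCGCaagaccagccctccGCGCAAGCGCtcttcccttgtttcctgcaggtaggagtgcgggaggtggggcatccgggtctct
EIF2AK2: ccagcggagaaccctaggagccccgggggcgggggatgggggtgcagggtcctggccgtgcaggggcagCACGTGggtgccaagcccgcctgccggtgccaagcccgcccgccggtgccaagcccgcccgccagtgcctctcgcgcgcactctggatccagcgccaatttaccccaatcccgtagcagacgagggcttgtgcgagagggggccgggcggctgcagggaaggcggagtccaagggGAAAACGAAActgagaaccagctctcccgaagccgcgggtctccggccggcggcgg
HEATR5B holds CCGGAAG and 3 matches to the NRF1 letters, GCGCA and GCGC with 1 base between. EIF2AK2 holds the core of the interferon-stimulated response element (ISRE), GAAA and GAAA with 2 bases between, and CACGTG, an E-box. The first base of the ISRE match lies 6 bases before the EIF2AK2 start, so the match spans that start.

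Windows were found for 45 of the 49 members, and for MEMO1, DPY30, CRIM1 and CNRIP1 none was used. On either strand the ISRE core was in 3 of the 45 members (6.67%), CDC42EP3, LTBP1 and VIT, and in 4.38% of the 27305 genes with a window. CCGGAAG was in 12 (26.7%) against 12.2%, the NRF1 letters in 5 (11.1%) against 6.98%, CACGTG in 2 (4.44%) against 8.77% and TATAAA in 5 (11.1%) against 14% of genes. No matches of different letters overlapped in these windows. The median G and C content was 62.8% in the members' windows and 58.7% in all. A match is a description of letters and not a bound site, and of the 7 members past 2-fold, the 6 with a window held no ISRE core there.

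Relatives of the members coded elsewhere in the genome were mostly nearer to zero. In 22 families and complexes, 21 members and 74 relatives were measured. The members had a median of 0.61 and 18 were positive, while the relatives had a median of 0.05, 44 were positive, 5 were 2-fold higher and none was 2-fold lower. Over all measured genes 54.9% were positive, 4.58% 2-fold higher and 1.2% 2-fold lower. SLC30A6 lay above its 4 measured relatives, YPEL5 above 4, YIPF4 above 5 and BIRC6 above 5. ACTR2 went the other way, at -0.04 below its 5 measured partners, of which ARPC1B was higher by 1.28 (0.67 to 1.76). Annexins did not separate either: ANXA4 lay above 5 of 10 relatives, and ANXA10 (2.17), ANXA1 (1.89), ANXA7 (1.62) and ANXA9 (1.35) were 2-fold higher. As the members were picked for their differences and the relatives were not, nothing particular to the members is read from this.

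Epithelial and gastric markers varied from clear signal to the low end in both arrays. Of 8 epithelial and gastric markers 6 were measured and none was 2-fold different. CDH1 was at 10.26 in MKN45 and 10.74 in MKN45P, and KRT8 at 3.31 and 3.13. EPCAM was at 6.39 in MKN45 and 7.43 in MKN45P (0.83), and the stomach gene TFF1 at 4.92 and 3.71 (-0.50). KRT19, with too few probesets to count, was at 6.36 and 5.60. The other listed stomach genes, TFF2 and CLDN18, were near the low end in both lines. The means over all listed markers with probesets were 5.10 and 5.03 for the epithelial list, 2.21 and 2.33 for fibroblast, 2.30 and 2.10 for endothelial, 2.23 and 2.10 for immune and 4.81 and 4.71 for mesothelial markers, in MKN45 and MKN45P. Of these lists' measured markers FBLN1 (1.10) and KRT5 (1.06) were 2-fold higher and UPK3B (-1.06) 2-fold lower.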

How the data were processed

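Total RNA of each line was depleted of ribosomal RNA, made into cDNA with a whole-transcript kit and hybridised to an exon array, per the labels' protocols. The deposited values are log2 values per probeset, a scale read from their range of 1.42 to 13.48. The submitters' processing notes name Partek and hg18, while background correction, probe summary and scaling are steps not given in the sources used here. No further scaling was applied to the deposited values.

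Of 877986 probesets, 286871 carried exactly 1 symbol in the platform annotation and were used, 3137 carried several and 587978 are unnamed in it. Of 18923 symbols, 16000 were current in RefSeq (GRCh38.p14), 2815 matched through an older name, 104 matched several genes and 4 none. RefSeq served for names, gene order and start regions. Positions on hg18 were not used.

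A gene's difference was the median over its probesets of MKN45P minus MKN45. Measured genes had at least 4 probesets and a level of at least 1.92. Signal means a level of at least 2.77, where the level of a probeset is the mean of both arrays. Counts are by size, at 2-fold. All members could be named, with unlisted genes past 2-fold or sharing a start region, 5 flanking genes on each side, relatives past 2-fold, and probesets with an index of 2 or more. The members, roles, families and motifs were chosen with earlier results of these data known. Only the gene difference and its 2-fold count were tested on simulated data, with added shifts larger than 2-fold. The windows, index, motifs and families were not tested in that way. Alternatives were 3 other scalings, 2 other gene summaries, 1 restriction to probesets with signal, a minimum of 10 probesets and 2 other level filters. Python 3.11.15, numpy 2.4.6, pandas 2.3.3, statsmodels 0.14.6 and matplotlib 3.10.9 were used.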

Additional observations from a re-analysis of the deposited data

How the results depend on the processing

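No paired analysis was possible because each line had 1 array. Under 9 other settings no listed gene past 2-fold changed sign, and 6 of the 7 were 2-fold higher in every setting that gave them a value: YPEL5, LCLAT1, DPY30, SLC30A6, YIPF4 and AAK1. The exception, LBH, was at 0.95 after loess. In 2p23-p22, 12 of 22 members were 2-fold higher over probesets with signal, against 6 of 23. Probesets can reach that signal through MKN45P alone. In 2p14-p13 the count of 1 became 3 with quantile normalization or the mean over probesets, 2 with median centring, and 6 with the difference of median levels or with probesets with signal. The share of all genes 2-fold higher became 9.62% with the difference of median levels, 11.4% with probesets with signal and 7.25% with the level filter at 2.77. With no level filter the median of genes left out of the list was 0.0145 over 24 genes, since genes near the low end then enter. Higher genes were 79.3% of all those past 2-fold as deposited and 66.3% after loess. Of 358 values of single members under other settings, 351 lay within 1 SD over probesets of the reported one and 7 did not. That SD is a wide limit: in NFU1 it was 1.81, and a value of 2.60 against the reported 0.83 lay within it. In at least 1 setting 22 members were 2-fold higher, against 7 as reported. The share of all genes 2-fold higher in at least 1 setting was not counted, so nothing is read from that rise.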

Other observations

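Between the neighbourhoods, 78 further genes of 2p were measured, with a median difference of 0.30 (0.01 to 0.66). Past 2-fold, 7 were higher in MKN45P (8.97%) and 1 was lower (1.28%), beside 4.58% and 1.2% of all measured genes. The genes past 2-fold were named after their values were seen. PREPL, a serine peptidase-like gene, was at 3.65 in MKN45 and 7.06 in MKN45P (2.54, 1.53 to 3.41 over 25 probesets). COMMD1, a regulator of copper handling and NF-kappaB, was at 3.56 and 6.23 (2.49, 1.70 to 2.66 over 5 probesets, all higher). MCFD2, a partner of the cargo receptor LMAN1, was at 2.80 and 5.80 (1.83). C2orf30, now named ERLEC1 (1.32), and PNPT1 (1.31) followed, with GALM and CYP1B1 beside the first stretch. SGK493, now named PKDCC, was lower, at 6.01 in MKN45 and 4.85 in MKN45P (-1.63, -2.08 to -1.29 over 12 probesets, none of them higher).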
